A study of Mus musculus with 9 samples.

Results

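The Polycomb repressive complex genes are 9 genes of mouse prefrontal cortex, taken by symbol from a matrix of 14444 genes: Ezh1, Ezh2, Eed, Suz12, Jarid2, Kdm6b, Rnf2, Ring1 and Bmi1. All 9 symbols were found, and no filter on low values was applied to them. Total RNA was sequenced after ribosomal RNA depletion from the prefrontal cortex of mice in postnatal weeks 5 to 8. The 9 libraries formed 3 groups of 3: saline in wild-type mice, saline in Shank3 mutant mice, and UNC0642 in Shank3 mutant mice, injected intraperitoneally at 1 mg per kg daily over 3 days. Shank3 encodes a scaffold of the excitatory synapse, and UNC0642 inhibits EHMT1 and EHMT2, the methyltransferases that mono- and dimethylate histone H3 at lysine 9. The labels give neither the Shank3 allele nor the zygosity, the sex or the pooling of animals, and they do not name the animal behind a library; a p-value here therefore measures a spread that may be technical.

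Polycomb proteins keep genes silent through 2 kinds of complex. Polycomb repressive complex 2 (PRC2) methylates lysine 27 of histone H3 through EZH1 or EZH2, which need EED and SUZ12 for activity, and JARID2 helps to bring the complex to its sites; KDM6B removes the same mark. Polycomb repressive complex 1 (PRC1) ubiquitinates histone H2A through the RING proteins RING1 and RNF2 (also called RING1B), each paired with a PCGF protein such as BMI1 (PCGF4). EZH2 is known as the form of dividing cells and progenitors, and EZH1 as the form of cells that have stopped dividing, which include neurons. EZH2 and other cell cycle genes are known targets of the E2F transcription factors.

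The promoters are shown for the pair of enzymes whose levels lay farthest apart, Ezh2 and Ezh1, for Suz12 and for Bmi1, the member with the largest change relative to its error. Each window runs from 250 bases before to 50 after the start in RefSeq (GRCm38.p6), 5′ to 3′ on the strand of the gene. Capitals mark matches to the E2F words TTTGGCGC, TTTCCCGC, TTTCGCGC and TTTGCCGC, searched on both strands. The windows are chr6:47594981-47595280 on the minus strand for Ezh2, chr11:101226414-101226713 on the minus strand for Ezh1, chr11:79992856-79993155 on the plus strand for Suz12 and chr2:18676768-18677067 on the plus strand for Bmi1.
Ezh2: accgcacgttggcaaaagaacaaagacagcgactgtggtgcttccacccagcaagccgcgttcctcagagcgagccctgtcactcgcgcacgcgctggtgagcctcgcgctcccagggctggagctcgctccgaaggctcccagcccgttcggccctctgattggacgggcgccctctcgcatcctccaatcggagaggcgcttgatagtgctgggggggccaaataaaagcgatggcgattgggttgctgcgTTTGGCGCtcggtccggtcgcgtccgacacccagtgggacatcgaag
Ezh1: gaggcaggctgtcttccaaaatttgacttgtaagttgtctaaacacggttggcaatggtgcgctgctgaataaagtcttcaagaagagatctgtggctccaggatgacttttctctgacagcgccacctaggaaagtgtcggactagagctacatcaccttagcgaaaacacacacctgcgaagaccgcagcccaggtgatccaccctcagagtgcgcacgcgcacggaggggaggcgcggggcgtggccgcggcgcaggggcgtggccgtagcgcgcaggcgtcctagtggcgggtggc
Suz12: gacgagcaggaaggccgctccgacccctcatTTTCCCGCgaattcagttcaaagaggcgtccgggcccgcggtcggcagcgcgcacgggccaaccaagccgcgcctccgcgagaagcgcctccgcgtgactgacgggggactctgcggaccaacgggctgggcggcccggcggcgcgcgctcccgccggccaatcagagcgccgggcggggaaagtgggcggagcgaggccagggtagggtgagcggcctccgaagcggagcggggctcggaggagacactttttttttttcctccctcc
Bmi1: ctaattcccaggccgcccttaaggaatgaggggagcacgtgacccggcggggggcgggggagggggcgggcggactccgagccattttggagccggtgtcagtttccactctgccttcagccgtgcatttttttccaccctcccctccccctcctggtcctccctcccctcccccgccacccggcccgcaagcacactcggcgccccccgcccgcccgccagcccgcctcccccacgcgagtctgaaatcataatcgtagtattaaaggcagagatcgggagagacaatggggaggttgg

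Promoters of 8 of the 9 genes were in the RefSeq table; Kdm6b was not matched. An E2F word lay in the windows of 2 genes, at base 4 counted from the start in Ezh2 and at -219 in Suz12, and such a word lay in 2.26% of all 32851 promoters of the same length. The windows of Ezh1, Eed, Jarid2, Rnf2, Ring1 and Bmi1 held none of these letters. The CCAAT word, on either strand, lay at 3 places in Ezh2, at 1 each in Eed and Suz12 and in both Jarid2 windows, and in 37.4% of all promoters. The windows were rich in CpG: 41 in Suz12, 37 in Ring1, 31 in Ezh2, 30 in Rnf2, 24 and 23 in Jarid2, 23 in Ezh1, 23 in Bmi1 and 17 in Eed, against a median of 7 over all promoters. These matches describe the letters and say nothing of binding.

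Before any comparison, a step in the authors' values has to be known. The values had been set so that, gene by gene, the wild type together with UNC0642 replicates 2 and 3 averaged the same log2 level as the saline mutants together with UNC0642 replicate 1, so differences between group means in the deposited values do not measure genotype or treatment directly. Whole reads behind the values were recovered for 14444 of 14444 genes and came to between 12035098 and 16165483 per library. In these reads the libraries fell into a different division, with the wild type and UNC0642 replicate 3 on 1 side and the saline mutants and UNC0642 replicates 1 and 2 on the other, along a first principal component with 52.1% of the variance. Only UNC0642 replicate 3 separates genotype from division. Shank3 lay at 308 to 355 in the wild type, at 318 to 344 in saline mutants and at 288 to 322 under UNC0642 (deposited values), which checks the genotype only if the allele removes exons of the transcript. Markers of excitatory neurons (Slc17a7, Tbr1 and 8 others) were measured 10 of 10, with summed levels of 7810 to 8534 RPM in the wild type, 8556 to 8924 in saline mutants, above all others, and 7846 to 8110 under UNC0642 (recovered reads scaled to 1000000 per library with median-of-ratios factors).

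The 9 genes were of moderate level, with a single exception. Levels between genes are given as deposited values per kilobase of exon (all annotated exons of the gene joined, GENCODE M21). In the wild type Bmi1 was highest at 11.4 ± 0.65, then Ezh1 at 8.89 ± 0.96, Ring1 at 8.11 ± 0.15, Suz12 at 7.30 ± 0.19, Rnf2 at 6.76 ± 0.47, Kdm6b at 4.65 ± 0.75, Jarid2 at 4.01 ± 0.22, Eed at 3.71 ± 0.29 and Ezh2 at 0.64 ± 0.16 (SD, n = 3 each). In this order the neighbours Ezh1 and Ring1, Suz12 and Rnf2, Kdm6b and Jarid2, and Jarid2 and Eed overlapped between libraries. The other neighbouring pairs did not overlap. Of 13869 genes with a length, 69.4% lay below Bmi1, 62.6% below Ezh1 and 8.48% below Ezh2.

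The order depended in part on the length used. Per kilobase of the longest annotated transcript, Ezh1 came to 15.7 and passed Bmi1 at 12.6, and Ezh2 came to 1.53, still the lowest of the 9. Exons of Rnf2 overlap those of Trmt1l and exons of Eed overlap those of E230029C05Rik, both on the opposite strand and both in the matrix. The strand setting of the counting is not given in the sources used here, so reads of such pairs cannot be told apart with certainty.

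**Figure D1:**
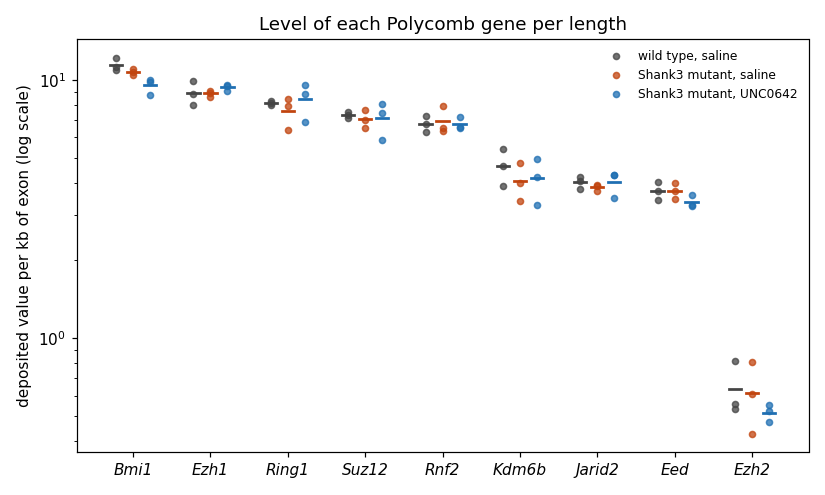
Deposited value per kilobase of exon (log axis) for the 9 genes in order of their wild-type mean; each point is 1 library, each bar a group mean, and colours mark the 3 groups. Ezh2 lies at 0.43 to 0.82 in all 9 libraries, far below the other 8 genes.

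Ezh2, the methyltransferase of dividing cells, was also the most thinly read member. Its deposited values were 3.72, 3.57 and 5.47 in the wild type, 2.86, 5.40 and 4.06 in saline mutants and 3.50, 3.16 and 3.67 under UNC0642. These rest on 50, 54 and 81 reads, then 27, 65 and 45, then 33, 58 and 64. The groups overlapped, the saline mutants spanned the widest range, and the 27 reads of saline replicate 1 carry an exact Poisson interval of 17.8 to 39.3 (95%, counting error only). Ezh1, the enzyme of non-dividing cells, had 760 to 1103 reads per library. Its deposited values were 73.7, 59.4 and 65.4 in the wild type, 63.9, 67.3 and 66.2 in saline mutants and 71.1, 70.4 and 67.4 under UNC0642. The wild type held both the highest and the lowest value of Ezh1, so its group spanned the other 2.

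EED and SUZ12 are the partners that EZH1 and EZH2 need, and JARID2 the one that helps to place the complex. Eed lay at 14.2, 13.1 and 15.3 in the wild type, at 14.2, 13.2 and 15.3 in saline mutants and at 12.4, 13.7 and 12.6 under UNC0642 (deposited values). UNC0642 replicates 1 and 3 lay below all 6 others, and replicate 2 lay among them. Suz12 lay at 35.2, 36.0 and 37.1, then 34.5, 37.7 and 32.1, then 36.9, 29.0 and 39.8. Jarid2 lay at 39.4, 36.6 and 40.9, then 37.7, 36.1 and 38.2, then 41.7, 34.0 and 41.4. For Suz12 and Jarid2 alike, UNC0642 replicate 2 was the lowest of the 9 libraries in deposited values, which carry the authors' step. In recovered reads the lowest for Suz12 was saline mutant replicate 3, at 29.6 RPM against 30.6 in UNC0642 replicate 2. For Jarid2 it was saline mutant replicate 2, at 33.6 against 35.5. In the deposited values the groups overlapped for Eed, Suz12 and Jarid2.

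Kdm6b, the demethylase of the mark that PRC2 places and an activity-responsive gene in neurons, varied most among the well-read members. Its deposited values were 32.4, 27.1 and 37.5 in the wild type, 23.5, 33.2 and 27.8 in saline mutants and 34.5, 22.8 and 29.4 under UNC0642. Each group held at least 1 library under 28 and 1 over 33, and the groups overlapped.

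Among the PRC1 genes, Rnf2 and Ring1 encode alternative RING subunits. Rnf2 lay at 26.0, 27.9 and 29.8 in the wild type, at 32.7, 26.2 and 26.9 in saline mutants and at 26.9, 29.6 and 27.2 under UNC0642 (deposited values). Ring1 lay at 25.8, 26.3 and 26.8, then 25.7, 20.7 and 27.3, then 30.8, 28.6 and 22.2. The wild-type libraries were the closest together for Ring1, and both mutant groups had values on either side of them. Bmi1, a PCGF subunit known for silencing the Cdkn2a locus in progenitor cells, lay at 43.5, 44.5 and 48.3 in the wild type, at 43.7, 41.5 and 42.4 in saline mutants and at 39.5, 34.7 and 39.0 under UNC0642. All 3 UNC0642 libraries lay below all 6 saline libraries.

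**Figure D2:**
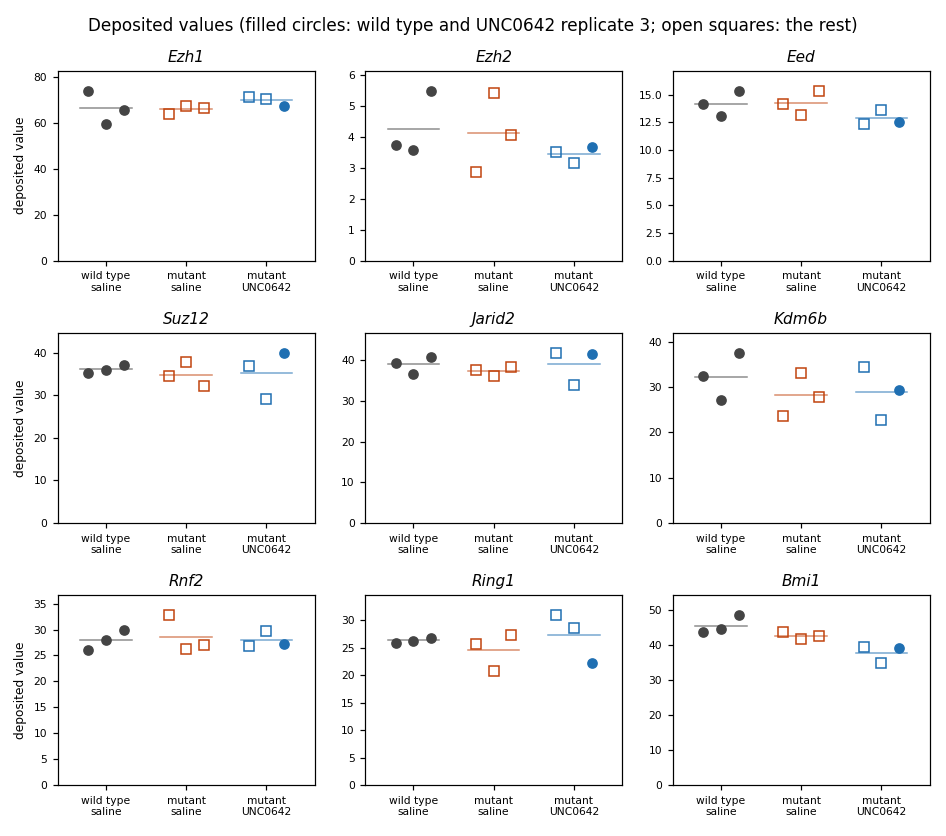
Deposited values (vertical axes, starting at 0) of the 9 genes in the 3 libraries of each group; horizontal lines are group means, filled circles are the wild type and UNC0642 replicate 3, open squares the other libraries. Bmi1 under UNC0642, at 34.7 to 39.5, lies below the 41.5 to 48.3 of the saline groups.

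The comparison of saline mutants with wild type asks what differs with the Shank3 genotype. None of the 9 genes was called in the deposited values: the differences ran from -0.20 for Kdm6b (SE 0.16) to 0.03 for Rnf2 (SE 0.11) on the log2(value + 0.5) scale, with a median of -0.06 beside 0.00 over all genes. By limma with Benjamini-Hochberg adjustment, 0 of 14444 genes (0%) were called, which asks for an adjusted p under 0.05. At an unadjusted p under 0.05 there were 19 genes (0.132%), none of them a member. The 2 groups did not overlap for 3.43% of all genes and for 0 of the 9. By the authors' step, these differences are set by the UNC0642 libraries.

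In recovered reads, given below as RPM, Bmi1 fell in the saline mutants. It lay at 48.6, 49.9 and 54.0 in the wild type, at 38.2, 36.4 and 37.1 in saline mutants and at 34.6, 38.7 and 43.7 under UNC0642 replicates 1 to 3. Every saline mutant library lay below every wild-type library, UNC0642 replicates 1 and 2 lay just below and just above the saline mutants, and replicate 3 lay between the 2 ranges. Saline mutants differed from wild type by -0.45 on the log2 scale (SE 0.10, limma-voom adjusted p = 0.020), in a fit that called 12.4% of all genes, 6.9% lower. The size held with any 1 library left out (-0.48 to -0.41), but the call did not: the adjusted p rose to 0.093 without wild-type replicate 2, 0.058 without wild-type replicate 3, and 0.081, 0.054 and 0.082 without saline mutant replicates 1, 2 and 3. It was 0.0021 without UNC0642 replicate 3. With the division as a term in the fit, 0 genes were called (711 at an unadjusted p under 0.05) and Bmi1 stood at -0.20 (SE 0.15, adjusted p = 0.99). That fit takes the division from UNC0642 replicate 3 against UNC0642 replicates 1 and 2. Its saline mutant differences therefore rest on these treated libraries and are not a direct contrast of saline mutants with wild type. The division and the genotype cannot be told apart for Bmi1 beyond the 1 library that crosses them. In bulk tissue, fewer cells of a type and less RNA per cell cannot be told apart either.

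Several other members leaned the same way in the reads without being called. Kdm6b differed by -0.45 (SE 0.15, limma-voom adjusted p = 0.067), Ezh2 by -0.60 (SE 0.29, adjusted p = 0.16), Suz12 by -0.26 (SE 0.12), Jarid2 by -0.24 (SE 0.10) and Ring1 by -0.24 (SE 0.13). Ezh1 (0.09), Eed (-0.06) and Rnf2 (0.00) lay near 0. Saline mutant and wild-type libraries did not overlap, with the mutants lower, for Suz12, Jarid2, Ring1 and Bmi1, which is 4 of 9 beside 20.2% of all genes. Counted in either direction, it was the same 4 of 9 beside 40.6% of all genes, so the members were apart about as often as genes in general.

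UNC0642 replicate 3, the mutant library on the wild-type side, did not place these 4 genes alike. Suz12 lay at 37.3 to 39.3 RPM in the wild type, at 29.6 to 34.8 in saline mutants and at 42.3 in this library, above the wild type. Jarid2 lay at 38.5 to 42.9, at 33.6 to 35.6 and at 43.6 there, also above the wild type. Ring1 lay at 26.6 to 27.6, at 19.5 to 25.8 and at 22.8 there, within the saline mutants. Bmi1 at 43.7 was below all wild-type libraries and above all other mutant libraries. With the division as a term, the saline mutant coefficient was 0.14 for Suz12 (SE 0.16) and 0.00 for Jarid2 (SE 0.15). For Ring1 it was -0.60 (SE 0.19, limma-voom adjusted p = 0.79). This coefficient is the difference of UNC0642 replicate 3 from wild type, less that of UNC0642 replicates 1 and 2 from saline mutants. For Ring1 these parts were -0.25 and 0.36, so -0.60 is not a measured difference between saline mutants and wild type.

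**Figure D3:**
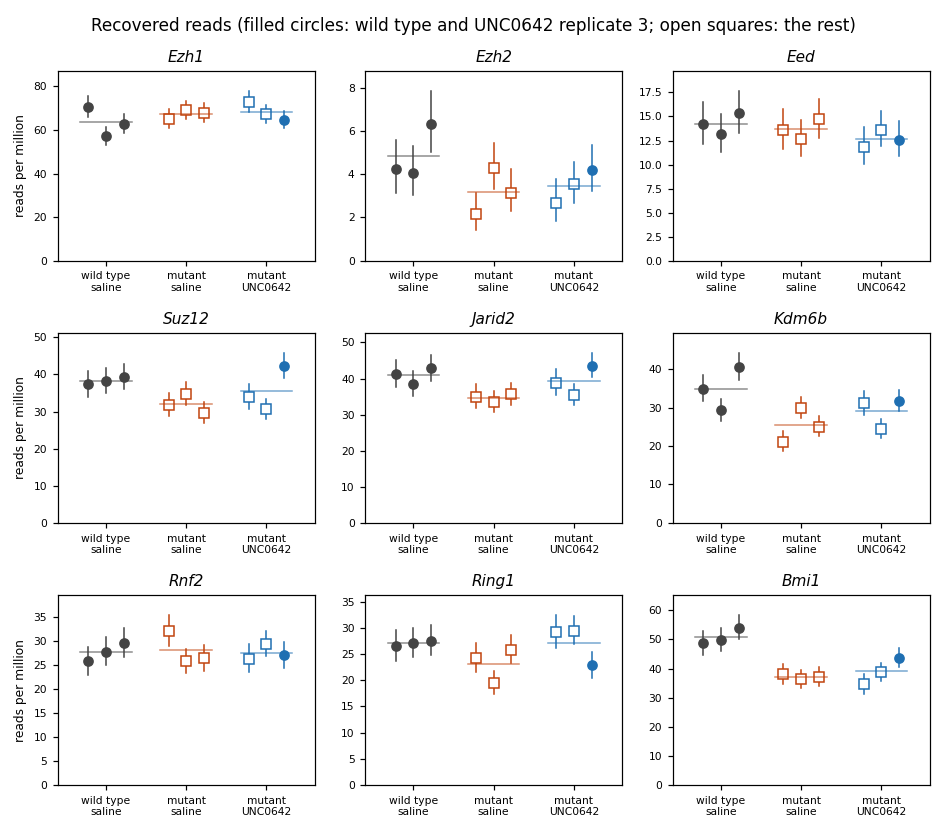
Recovered RPM (vertical axes, starting at 0) of the 9 genes by library; vertical lines are 95% exact Poisson intervals for counting error only, horizontal lines group means, filled circles the wild type and UNC0642 replicate 3, open squares the other libraries. For Bmi1 the 3 wild-type libraries, at 48.6 to 54.0, lie above all mutant libraries, and for Suz12 the filled circles, at 37.3 to 42.3, lie above all open squares.

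The comparison of treated mutants with wild type asks what remains different under the compound. In the deposited values Bmi1 was the only member with the groups apart, -0.27 (SE 0.09, limma adjusted p = 0.58), lower in 3 of 3 libraries; the groups did not overlap for 11.7% of all genes. Limma called 0 of 14444 genes (0%), with 1238 (8.57%) at an unadjusted p under 0.05 and Bmi1 the 1 member among them. The other 8 differences ran from -0.25 for Ezh2 (SE 0.22) to 0.08 for Ezh1 (SE 0.09). In recovered reads limma-voom called 10 genes (0.0692%) and no member, with Bmi1 at -0.38 (SE 0.10, adjusted p = 0.12). In the wild type and UNC0642 replicate 3 alone, which lie on 1 side of the division, Bmi1 stood at -0.22 (SE 0.14, adjusted p = 1.0); the lone treated library is there assumed to vary like the wild type.

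The comparison of UNC0642 with saline in mutants asks what the compound changes. In the deposited values no member was called, and the groups were apart for 2 of 9 beside 6.23% of all genes: Bmi1, lower by -0.17 on the log2 scale (SE 0.09), and Ezh1, at 67.4 to 71.1 against 63.9 to 67.3 (0.08, SE 0.09). Limma called 0 of 14444 genes (0%), with 281 (1.95%) at an unadjusted p under 0.05 and 0 members. The Bmi1 difference rested on the authors' step: UNC0642 replicate 2 had the lowest deposited value of all 9 libraries, 34.7, while its recovered level of 38.7 lay above all 3 saline mutants at 36.4 to 38.2. In recovered reads of all 9 libraries the difference of Bmi1 was 0.07 (SE 0.10), and limma-voom called 0 genes (533 at an unadjusted p under 0.05). The groups of Ezh1 overlapped in these reads, at 64.8 to 72.9 RPM under UNC0642 against 65.3 to 69.0. There 0 of 9 members were apart, beside 9.82% of all genes.

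The comparison that does not cross the division uses the recovered reads, from which the authors' step has been taken off, of 5 mutant libraries, UNC0642 replicates 1 and 2 and the 3 saline libraries. UNC0642 replicate 2 was in the other set of that step than the other 4, and what the sets stood for is not given in the sources used here. Ring1 was the 1 member whose libraries were apart, at 29.2 and 29.4 RPM under UNC0642 against 24.2, 19.5 and 25.8, where 21.8% of all genes were apart. Its log2 difference was 0.36 (SE 0.12, limma-voom adjusted p = 0.78), so it was not called. UNC0642 replicate 3, on the other side of the division, had 22.8, within the saline range. Limma-voom called 0 of 14444 genes (0%), and 851 (5.89%) had an unadjusted p under 0.05, Ring1 among them.

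The other 8 members differed little in these 5 libraries, with intervals that set how much could have gone unseen. Bmi1 differed by -0.01 (95% interval -0.21 to 0.19), Ezh1 by 0.05 (-0.11 to 0.21), Suz12 by 0.01 (-0.22 to 0.23), Jarid2 by 0.09 (-0.10 to 0.29) and Rnf2 by 0.01 (-0.24 to 0.27). Eed differed by -0.08 (-0.40 to 0.23) and Kdm6b by 0.10 (-0.20 to 0.41). For Ezh2, at 0.00, the interval of -0.69 to 0.70 was the widest, as its 27 to 65 reads per library allow.

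**Figure D4:**
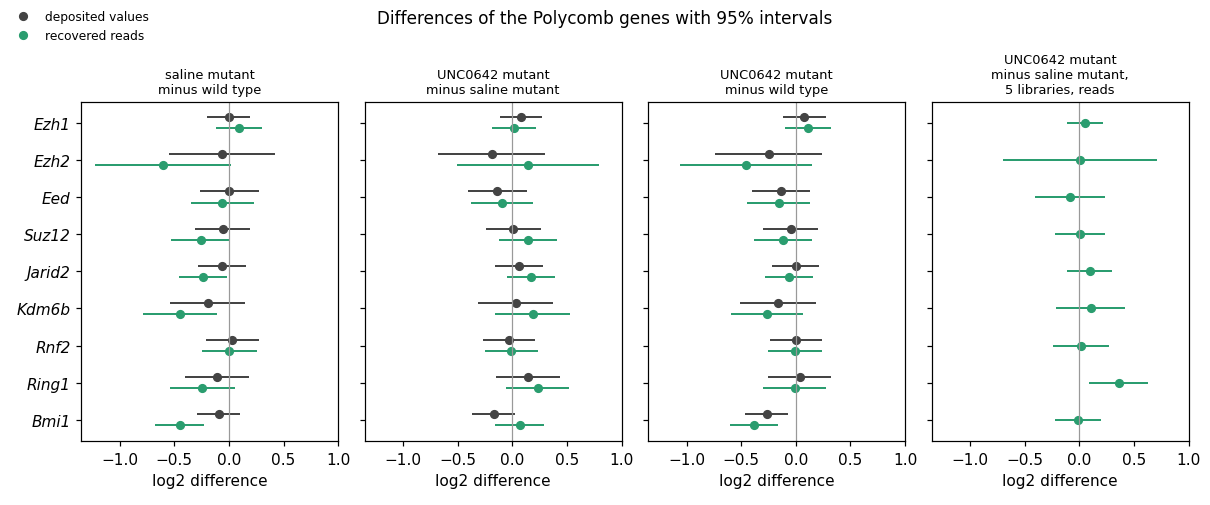
Log2 differences (points) with 95% intervals (lines) of the 9 genes in the 4 comparisons, for deposited values (grey, limma) and recovered reads (green, limma-voom). Bmi1 stands at -0.09 in the deposited and -0.45 in the recovered values of the first panel, and at -0.01 in the last, which uses 5 libraries on 1 side of the division.

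Ratios within a library compare alternative subunits without regard to depth. Ezh1 exceeded Ezh2 per kilobase (recovered reads) by 8.92- to 15.0-fold in the wild type, 14.5- to 27.3-fold in saline mutants and 13.9- to 24.4-fold under UNC0642. Ring1 and Rnf2 were close, with ratios of 1.19 to 1.31, 0.96 to 1.24 and 1.08 to 1.41. Kdm6b relative to Kdm6a, the X-linked demethylase of the same mark, lay at 1.40 to 1.63, 0.98 to 1.18 and 0.97 to 1.40. Bmi1 relative to Pcgf2, its closest relative among the PCGF genes, lay at 2.07 to 2.24 in the wild type, at 1.25 to 1.39 in saline mutants and at 1.34, 1.71 and 1.93 under UNC0642. In these recovered reads the saline mutants lay below the wild type without overlap for the ratios to Kdm6a and to Pcgf2. That comparison crosses the division, and 40.6% of all single genes were apart in it. In deposited values the log2 ratios to Pcgf2 overlapped, at 0.74 to 0.85 in the wild type and 0.63 to 0.77 in saline mutants. Those to Kdm6a nearly met, with a lowest wild-type value of 0.3587 and a highest saline mutant value of 0.3586. Commd3, the neighbour of Bmi1 on the same strand, lay at 34.0 to 36.3 RPM in the wild type, 41.9 to 45.2 in saline mutants, 45.1 and 43.5 in UNC0642 replicates 1 and 2 and 37.8 in replicate 3, the opposite order to Bmi1.

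The wider Polycomb machinery was taken from lists: 7 of 9 PRC2 accessory genes, 31 of 31 further PRC1 genes, 12 of 12 genes of H2A deubiquitination and 2 of 2 other demethylases were measured. No gene of these lists was called in any comparison of deposited values or in the 5 libraries. In the recovered reads of saline mutants against wild type, 7 of 31 PRC1 genes were called, all lower, beside 6.9% of all genes lower and 5.54% higher. The median of the 31 was -0.05 beside 0.00 over all genes. The 7 became 0 without wild-type replicate 2 or saline mutant replicate 3, 1 without saline mutant replicate 1, 2 without wild-type replicate 3 and 3 without saline mutant replicate 2, and were 5 to 9 without any other library. They were called in a fit whose total over all genes likewise ran from 14 to 3588 genes. The 7, named after their values were seen, were Bcor (-0.76, SE 0.12, limma-voom adjusted p = 0.011), Pcgf6 (-0.64), Phc3 (-0.49), E2f6 (-0.44), Mga (-0.42), Rybp (-0.40) and Pcgf3 (-0.31). The limma-voom adjusted p was 0.046 for Mga and 0.049997 for Pcgf3, just under the threshold of 0.05. Pcgf6, Mga and E2f6 belong to 1 variant PRC1 with L3mbtl2, Bcor to another, and Rybp is shared among variants. L3mbtl2 itself went the other way, at 42.8 to 45.5 RPM in saline mutants against 40.4 to 41.9 in the wild type. So did Pcgf1 of the same list, at 8.07 to 10.4 against 5.40 to 8.02. Of the 31 differences 13 were above 0 and 18 below. Outside this list, Aebp2 of PRC2 (-0.39, limma-voom adjusted p = 0.042) and the glycosyltransferase gene Ogt (-0.31, adjusted p = 0.048) were also called lower.

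As with Bmi1, these calls crossed the division. Bcor lay at 41.0 to 48.4 RPM in the wild type, at 23.3 to 29.6 in saline mutants, at 27.7 and 28.4 in UNC0642 replicates 1 and 2 and at 35.9 in replicate 3. Mga lay at 79.1 to 95.9, at 64.4 to 65.8, at 63.7 and 69.0, and at 94.5 in replicate 3. Replicate 3 thus lay within the wild type for Mga, as it did for Phc3, Pcgf3 and Ogt, and between the ranges for Bcor, E2f6, Pcgf6, Rybp and Aebp2. None was called with the division as a term, where Bcor stood at -0.41 (SE 0.18, limma-voom adjusted p = 0.98), E2f6 at -0.34 (SE 0.15) and Mga at 0.09 (SE 0.14).

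In the 5 libraries on 1 side of the division, the list genes of smallest p were Usp16, Cbx6 and Cbx2. Usp16, a deubiquitinase of histone H2A, had 46.9 and 45.8 RPM under UNC0642 against 41.5, 31.1 and 31.3 (log2 difference 0.45, SE 0.11, limma-voom adjusted p = 0.70). Cbx2, a chromodomain subunit of PRC1, had 3.17 and 2.75 against 1.75, 0.98 and 1.75 (1.02, SE 0.35, adjusted p = 0.78). Cbx6, by far the more abundant of these chromodomain genes, had 590 and 585 against 672, 629 and 648 (-0.14, SE 0.05, adjusted p = 0.78). The libraries were apart for all 3, beside 21.8% of all genes, and none was called. UNC0642 replicate 3 had 33.8 for Usp16, within the saline range, 2.41 for Cbx2, above it, and 674 for Cbx6, above it.

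Genes known as Polycomb targets were mostly absent from the matrix. Of 68 listed developmental regulators 15 were present, and 0 of 39 Hox genes; the rule by which the authors kept genes is not given in the sources used here. Cdkn1a at 40.7 was the highest of the 15 in the wild type (mean deposited value), and the others lay between 0.82 for Foxd1 and 9.91 for Cdkn1c. In the 5 libraries 7 differences were above and 8 below 0, with a median of -0.02 and none called. In the recovered reads of saline mutants against wild type, Tbx3 was called lower (-1.59, SE 0.35, limma-voom adjusted p = 0.020). It was 1 of the 15, beside 6.9% of all genes called lower. Its counts were low, with 32, 37 and 46 reads in the wild type and 10, 24 and 10 in saline mutants. Tbx3 had 2.70 to 3.58 RPM in the wild type, 0.70 to 1.58 in saline mutants, 1.46 and 1.53 in UNC0642 replicates 1 and 2 and 2.15 in replicate 3. With the division as a term it stood at -1.08 (SE 0.58, adjusted p = 0.98).

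**Figure D5:**
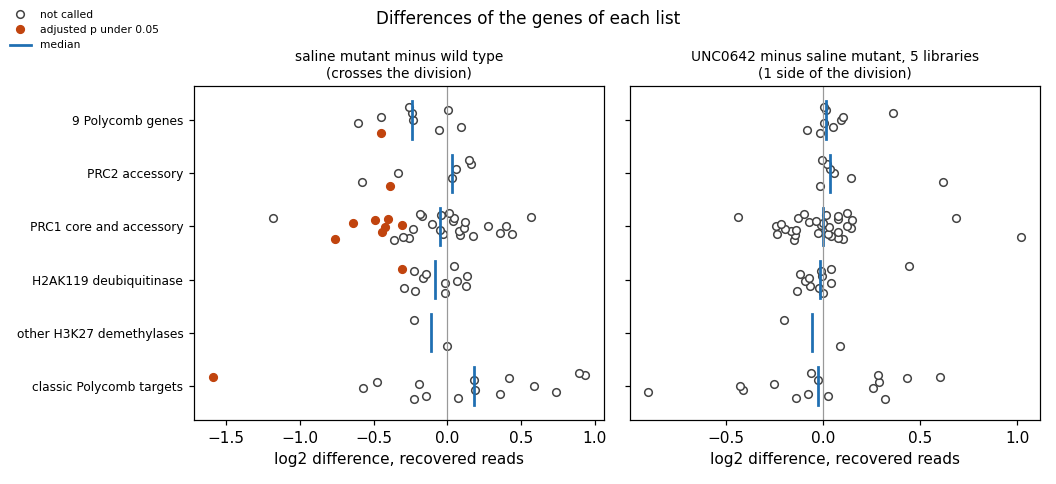
Log2 differences in recovered reads (horizontal axes) for the genes of each list, for saline mutant minus wild type (left) and for UNC0642 minus saline in 5 libraries (right); each point is a gene, filled where the limma-voom adjusted p is under 0.05, and bars are medians. Called genes, all lower, are seen in the left panel: 7 of 31 further PRC1 genes and 1 each of the 9 Polycomb genes, the PRC2 accessory genes, the deubiquitinase genes and the targets.

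Markers of some cell types differed along the division. Astrocyte markers (8 of 8 measured) summed to 4793 to 6167 RPM in the wild type, 3811 to 4221 in saline mutants, 3426 to 3720 in UNC0642 replicates 1 and 2 and 6070 in replicate 3. Oligodendrocyte precursor markers (6 of 6) summed to 331 to 465, 281 to 341, 275 to 327 and 390, so that wild-type and saline mutant libraries overlapped. Endothelial and mural markers (8 of 8) summed to 254 to 308, 196 to 258, 220 to 228 and 255, also with overlap. Oligodendrocyte markers (7 of 7) did not follow the division as a sum, at 2908 to 4697, 1470 to 3376, 2472 to 4708 and 3521, nor did the sum of excitatory neuron markers given above. Single markers could differ from their sum. Slc17a7 lay at 1349 to 1796 RPM in the wild type and 1502 in UNC0642 replicate 3, against 1800 to 1897 in all other libraries. These ranges all but met, at 1796 and 1800. Tbr1 of the same list did not follow the division, at 113 to 161, 118 to 133, 134 to 140 and 129. The astrocyte marker Gfap did not follow the division, at 66.9 to 139, 99.0 to 111, 88.5 to 111 and 114. The part of these cell types in the Bmi1 and PRC1 differences was not tested. Markers of dividing cells and progenitors, relevant to Ezh2, were measured 10 of 14 and summed to 149 to 168 in the wild type, 147 to 161 in saline mutants and 152 to 162 under UNC0642, with none at 0 reads in all libraries. Mki67 and Top2a, genes of the cell cycle, had 14 to 38 and 3 to 38 reads per library. Here too single markers differed from the sum. Mki67 lay at 2.11 to 2.85 RPM in the wild type and 2.35 in UNC0642 replicate 3, against 0.92 to 1.75 in all other libraries. Pcna went the other way, at 34.8 to 39.7 and 41.9 against 43.7 to 53.7. Top2a overlapped, at 1.35 to 2.96 and 2.15 against 0.24 to 1.84, as did Mcm2, Mcm5 and Ccna2.

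Over the 9 libraries the highest correlation of log2 deposited values between members was that of Ezh2 and Kdm6b (r = 0.76, and 0.82 in recovered reads), then Suz12 and Jarid2 (0.68 and 0.81). Bmi1 stood at 0.46 with Ezh2, 0.43 with Suz12 and 0.37 with Jarid2 in the deposited values, and at 0.74, 0.70 and 0.71 in recovered reads, which hold the division. Ezh1 and Ezh2 stood at -0.03 and -0.33. Among 14377 genes, those most like each member were Trp53bp2 for Ezh2 (r = 0.96), Gpr180 for Ezh1 (0.98), Lpcat1 for Eed (0.95), Ap4e1 for Suz12 (0.99), St8sia4 for Jarid2 (0.97), Tbc1d12 for Kdm6b (0.95), Nagpa for Rnf2 (0.94), Ankrd32 for Ring1 (0.96) and Man2a2 for Bmi1 (0.98). These are the highest of many values over 9 libraries that share the authors' step and the division, and they are given as a description.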

How the data were processed

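Total RNA of mouse prefrontal cortex was extracted with Trizol, depleted of ribosomal RNA and made into stranded libraries, per the labels' protocols. The submitters' processing notes name cutadapt, TopHat2, HTSeq and the mm9 build. Tool versions, scaling and the strand option of the counting were not given in the sources used here. What was deposited is a signal per gene, named CPM by the authors, 1 column per library, and the 9 single-library files held the same values. They carry the step described above: among 255 possible divisions of the libraries, 1 left no gene's set means more than 2.5e-09 apart in log2, and the next best left 0.87.

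To recover reads, the shift between the sets was sought per gene that turns its values into whole numbers once a prior, averaging 3.0 reads, is taken off. Each of the 14444 genes had 1 such shift, 100% of values came out whole to within 0.02 reads, and values rebuilt from the reads differed by at most 2.4e-09 (log2). The recovery and the limma steps were tested on simulated data.

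Deposited values were compared with limma 3.58.1 under R 4.3.3, its intensity trend set, on log2(value + 0.5), which understates changes of low genes, all 9 libraries and the group as the only term. Recovered reads were compared with limma-voom and median-of-ratios factors. Benjamini-Hochberg adjustment ran over all 14444 genes, with adjusted p under 0.05 as the call. Tables and plots were made in Python 3.11.15 (pandas 2.3.3, numpy 2.4.6, matplotlib 3.10.9, scipy 1.17.1). GENCODE M21 gave lengths for 13869 genes; it is on another build than mm9, so no gene coordinates are given beyond the RefSeq promoters.

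The members and lists were chosen with earlier results of these data known. Named were the 9 members, up to 4 genes of smallest p from each list and comparison (a selection of which is described), and the genes of highest correlation with each member; genes named otherwise are said to be. Alternatives were pseudocounts of 0.1 and 1, a minimum value of 1 in 3 libraries or of 10 reads in 2, other scaling factors, only the 2 groups compared, a replicate block, each library left out, an adjusted p under 0.1, recovered reads with and without the division, and another transcript length. A fit of the wild type and UNC0642 replicate 3, the leaving out of each library in recovered reads, and the ratios to Pcgf2 and the values of Commd3 were added after seeing the data.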

Additional observations from a re-analysis of the deposited data

How the results depend on the processing

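Counts of genes called moved as follows. Between saline mutant and wild type, 0 became 5 with only the 2 groups compared and 1797 in recovered reads; leaving out each library there gave 14 (without wild-type replicate 2) to 3588 (without UNC0642 replicate 3), by way of 17, 490 and 25 without saline mutant replicates 1, 2 and 3 and 415 without wild-type replicate 3, and 0 to 9 further PRC1 genes called lower. Between treated mutant and wild type, 0 became 10 in recovered reads, 5 once the division was fitted too and 2 in the wild type and UNC0642 replicate 3 alone; leaving out each library gave 0 to 4, with 4 without UNC0642 replicate 1. In the 5 libraries, leaving out 1 gave 0 to 2 (2 without saline replicate 3, 1 without UNC0642 replicate 2). Leaving out each library gave 0 in the other comparisons of deposited values. Replicate numbers did not pair the libraries (correlations of deviations from -0.19 to 0.31); with the replicate block, 42 genes were called in the 5 libraries, none a member, and 0 elsewhere. Levels per kilobase of the longest transcript were 15.7 for Ezh1, 1.53 for Ezh2, 6.88 for Eed, 8.25 for Suz12, 4.67 for Jarid2, 8.72 for Rnf2, 10.3 for Ring1 and 12.6 for Bmi1. Beside Bmi1 in recovered reads (-0.45), no alternative called a member at an adjusted p under 0.05. At an adjusted p under 0.1, Kdm6b in recovered reads of saline mutants against wild type would pass too (limma-voom adjusted p = 0.067). Apart from left-out libraries, 297 of 324 log2 differences of members kept their direction and side of the threshold, and 26 changed sign. Between saline mutant and wild type these were Ezh1 with upper-quartile factors (0.0038), Ezh1 (0.094) and Eed (-0.059) in recovered reads, and Eed (-0.087), Suz12 (0.14) and Rnf2 (-0.048) with the division. Between UNC0642 and saline mutants they were Ezh2 (0.14) and Bmi1 (0.067) in recovered reads, and Ezh2 (0.0035) and Rnf2 (0.010) with the division. Between treated mutant and wild type they were Rnf2 with median-of-ratios factors (-7.4e-05), Jarid2 with upper-quartile factors (0.0065), Rnf2 (-0.0046) and Ring1 (-0.011) in recovered reads, Suz12 (0.14), Jarid2 (0.092), Rnf2 (-0.038) and Ring1 (-0.25) with the division, and Suz12 (0.15), Jarid2 (0.092), Rnf2 (-0.036) and Ring1 (-0.25) in the wild type and UNC0642 replicate 3 alone. In the 5 libraries they were Ezh2 (-0.067), Suz12 (-0.053) and Rnf2 (-0.026) with the replicate block and Rnf2 (-0.0041) with limma on log2 RPM. Leaving out each library changed the sign of 37 of 288 values. The ranges of the members concerned were, between saline mutant and wild type, Ezh1 -0.077 to 0.077, Ezh2 -0.26 to 0.15, Eed -0.050 to 0.058, Suz12 -0.11 to 2.9e-05, Rnf2 -0.067 to 0.090, Ring1 -0.19 to 0.0087. Between UNC0642 and saline mutants they were Ezh2 -0.40 to 0.0084, Suz12 -0.084 to 0.14, Kdm6b -0.11 to 0.19, Rnf2 -0.090 to 0.067. Between treated mutant and wild type they were Suz12 -0.14 to 0.085, Jarid2 -0.053 to 0.093, Rnf2 -0.050 to 0.048, Ring1 -0.060 to 0.17. In the 5 libraries they were Ezh2 -0.23 to 0.25, Eed -0.20 to 0.0023, Suz12 -0.060 to 0.086, Kdm6b -0.047 to 0.29, Rnf2 -0.075 to 0.11, Bmi1 -0.11 to 0.061. Beyond the authors' step and the division, given above, the cause of these changes was not tested. Ezh2, with 27 to 81 reads per library, is limited by depth.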
